A study of Mus musculus with 6 samples.

Results

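The genes described here are those whose symbol in the array's annotation starts with Psma, Psmb, Psmc, Psmd or Psme, with Psmb8 and Psmb9 left out. The symbols took in 43 of the 19057 genes with a named probe, and 36 of the 43 had a probe that passed the detection filter, among 8205 genes tested. The rule reads names and no measured value, but it was set with earlier results of these data known. Most of the 43 encode subunits of the proteasome, and a few only share the prefix.

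The study, titled for the block of Bcl6 binding to SMRT and NCoR by a peptide, read total RNA of primary macrophages grown from bone marrow on Illumina bead arrays. The mice were wild-type c57Bl6/J males aged 10 weeks. Cells in 3 arrays had received 5 µM RI-BPI, the inhibitory peptide, and cells in the other 3 arrays had received 5 µM of a control peptide, each for 12 h in MSF media. Bcl6 is a transcriptional repressor, and SMRT and NCoR are corepressors that it recruits. Arrays of 1 peptide are labelled as technical replicates, with no mention of separate cultures or animals, so p-values here measure the spread between arrays only.

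The proteasome is the large protease that degrades proteins tagged with ubiquitin. Its barrel, the 20S core, is built of outer alpha rings (Psma genes) and inner beta rings (Psmb genes) that hold the cutting sites. The 19S cap has a ring of ATPases (Psmc genes), which unfold the substrate, and non-ATPase subunits (most Psmd genes), which bind ubiquitin, remove it and hold the cap together. Psme genes encode other caps. In cells exposed to interferon-gamma, inducible beta subunits, Psmb10 among them, replace constitutive ones in new particles, and Psme1 and Psme2 form the PA28 cap; both changes are known to alter the peptides made for MHC class I. Psmb10 takes the place of Psmb7. Transcription of the constitutive genes is known to be raised together by NRF1, the product of Nfe2l1, when proteasome capacity is short.

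Values below are log2 of background-corrected, quantile-normalized bead intensity, given for RI-BPI arrays 1, 2 and 3 and then for control arrays 1, 2 and 3. A change is the RI-BPI mean minus the control mean on that scale, with its standard error (n = 3 arrays per peptide). A gene is said to have risen or fallen where the moderated test of limma, adjusted by Benjamini-Hochberg across the 8205 genes tested, gave a p under 0.05, and every adjusted p below is of that kind. For further probes of a gene it comes from the same test with each of 12191 kept probes fitted on its own. Raw signals had array medians of 45.8 to 47.4, and RI-BPI arrays had 12931 to 13843 detected probes against 13866 to 14357 on control arrays. Log2 values of the 8205 genes correlated between arrays at 0.992 to 0.996 within a peptide and at 0.945 to 0.948 between peptides. Macrophage genes were present: Csf1r, Lyz2 and Cd14 changed by -0.09, -0.04 and 0.09 without passing the test, while Mertk, Adgre1 and Fcgr1 fell, with changes of -0.74, -0.86 and -1.73. Itgam was detected on 3 control arrays and 0 RI-BPI arrays, so it passed the filter through the control arrays alone. Its passing the test follows partly from that filter. Itgam was at least 1.62-fold lower in RI-BPI arrays. It is counted in the 4 of 7 measured macrophage markers that fell, where 30.6% of all genes fell. No marker with a named probe for T cells, B cells, dendritic cells, fibroblasts or erythroid cells passed the filter. Of the neutrophil markers, S100a8 rose by 0.36, and Camp and Elane were detected on 0 arrays. The part of these marker changes in the proteasome results was not tested, and in RNA of whole cultures fewer cells of a type and less RNA per cell cannot be told apart.

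Most measured genes of the 19S cap and some of the constitutive core rose under RI-BPI, whereas Psmb10, Psme1, Psme2 and Psme4 fell. Among the 36 measured genes, 16 rose (44.4%), 4 fell (11.1%) and 16 did not pass the test. Over all genes tested, 30.7% rose and 30.6% fell, 61.3% in all, so the share of fallen proteasome genes lay below the background and the share of risen ones above it. The median change of the 36 was 0.24, against 0.01 over all genes. All 3 RI-BPI values lay above all 3 control values for 18 of the 36 genes, against 32.5% of all genes, and below them for 4, against 32.3%. Few of the changes were large. Past 1.5-fold there were 4 risen genes (Psmd6, Psmd12, Psmd11 and Psmb6) and 1 fallen gene (Psme2), where 14.8% of all genes had risen and 15.2% had fallen that far.

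Counts were then taken by part of the particle. Of 25 measured subunits of the constitutive core and the 19S cap, 14 rose (56%), 0 fell and 11 did not pass the test, with a median change of 0.32. The change was above 0 for 24 of the 25, Psmb1 being the exception, against 50.6% of all genes. It was above 0 for 23 with median centring in place of quantile normalization, and for 22 to 25 with an array left out. The 19S cap had 10 risen genes of 14 (71.4%) and a median of 0.44. The 20S core had 4 risen genes of 11 (36.4%), close to the 30.7% of all genes, and a median of 0.17. The difference between core and cap was not tested. In the Psme genes, 1 rose and 3 fell.

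**Figure D1:**
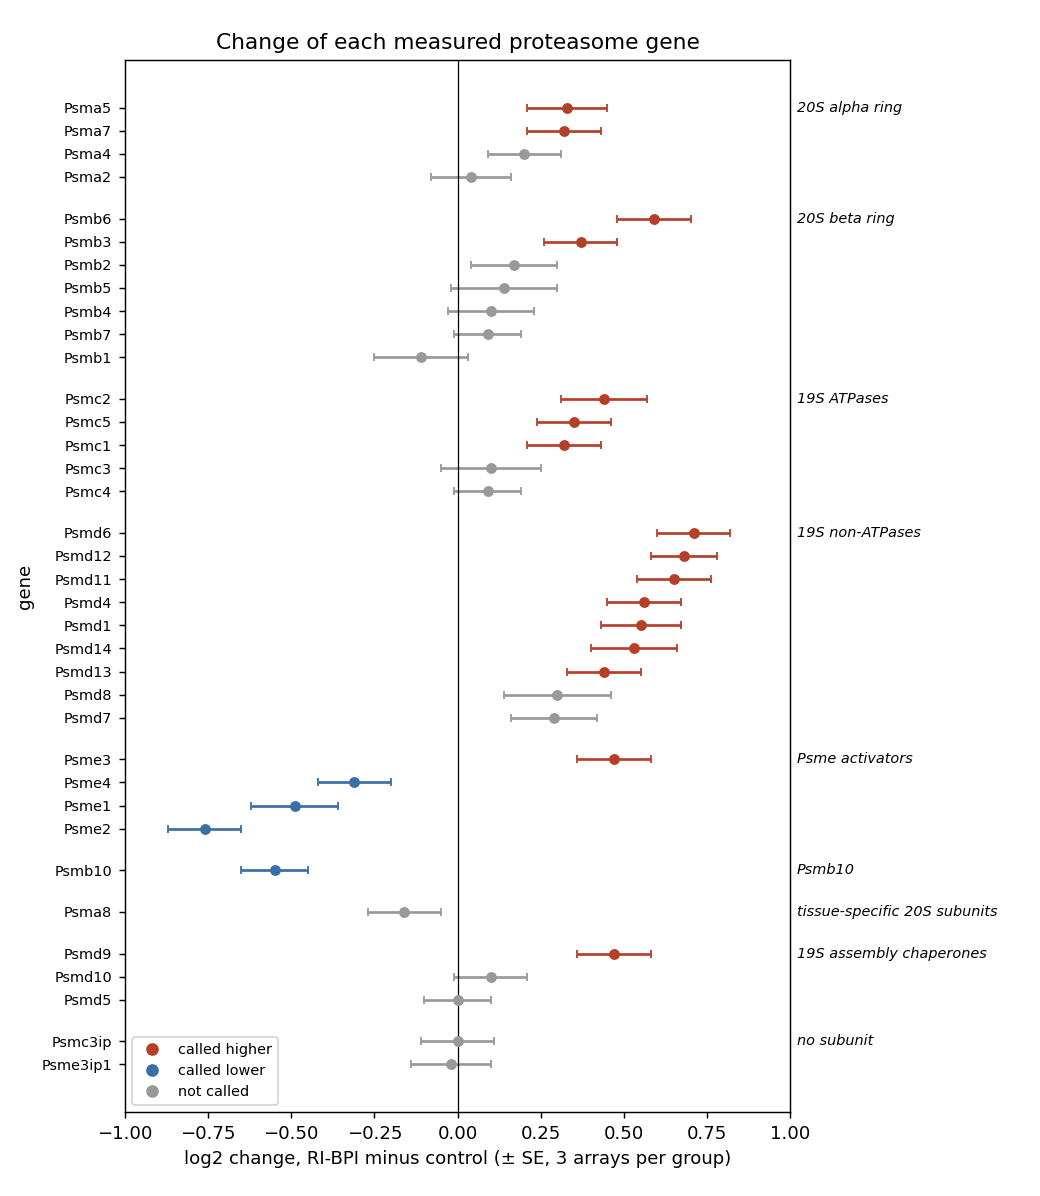
The change of each measured proteasome gene (log2 RI-BPI minus control, bars ± SE, n = 3 arrays per peptide), grouped by part of the particle, red points marking genes that rose, blue points genes that fell and grey points the rest. The 19S non-ATPase genes lie between 0.29 and 0.71, and Psmb10, Psme1, Psme2 and Psme4 are the genes that fell.

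Promoter windows are shown for some of the genes that fell and for the risen core and cap genes that hold the antioxidant response element core. Each is the 250 bases before an annotated start (RefSeq, GRCm38.p6), written on the gene's own strand. Windows of Psme1 and Psme4, which also fell, are not shown. Psmb10 (chr8:105938393-105938642, minus strand) and Psme2 (chr14:55591022-55591271, minus strand; the table holds 2 windows for Psme2, of which 1 is shown) fell, and Psmb6 (chr11:70525107-70525356, plus strand) and Psmd12 (chr11:107479278-107479527, plus strand) rose. Capitals mark the antioxidant response element core TGACNNNGC, searched on both strands, the element that NRF1 is known to bind; the match in Psmb6 reads TGACGGAGC and starts 9 bases before the gene, and the match in Psmd12 is on the other strand, 247 bases before the gene.
Psmb10: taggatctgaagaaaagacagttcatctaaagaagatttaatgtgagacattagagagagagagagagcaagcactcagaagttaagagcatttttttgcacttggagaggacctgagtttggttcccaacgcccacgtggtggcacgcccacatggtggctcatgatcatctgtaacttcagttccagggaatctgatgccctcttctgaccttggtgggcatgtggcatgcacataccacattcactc
Psme2: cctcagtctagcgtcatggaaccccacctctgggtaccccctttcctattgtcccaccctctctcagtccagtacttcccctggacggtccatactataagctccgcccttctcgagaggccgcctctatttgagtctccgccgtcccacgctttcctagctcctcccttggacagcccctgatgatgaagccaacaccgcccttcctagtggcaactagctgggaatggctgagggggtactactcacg
Psmb6: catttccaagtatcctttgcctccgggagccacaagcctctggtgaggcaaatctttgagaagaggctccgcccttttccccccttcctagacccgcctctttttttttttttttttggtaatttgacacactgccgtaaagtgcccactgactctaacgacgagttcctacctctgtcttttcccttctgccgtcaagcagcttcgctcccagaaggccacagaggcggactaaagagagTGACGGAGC
Psmd12: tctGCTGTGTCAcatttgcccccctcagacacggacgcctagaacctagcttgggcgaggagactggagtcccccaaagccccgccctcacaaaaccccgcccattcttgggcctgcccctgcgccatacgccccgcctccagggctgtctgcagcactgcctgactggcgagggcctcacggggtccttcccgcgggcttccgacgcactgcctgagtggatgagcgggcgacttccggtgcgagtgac
This core was present before 5 of the 36 members that the RefSeq table held (13.9%, counted by gene), namely Psmb5, Psmb6, Psmc6, Psmd12 and Psmd9, against 10.2% of all 32851 windows in the table. These 36 are not the 36 measured genes. They include genes without a kept probe, such as Psmc6, and no window was held for Psma8, Psmb1, Psmb2, Psmb7, Psmc3, Psmd3 and Psmd7. Among the 14 core and cap genes that rose it was present for 2 (14.3%), the Psmb6 and Psmd12 shown, so most risen genes had no such match, and the share was close to that of all windows. The interferon-stimulated pattern, GAAA and GAAA with any 2 bases between them, searched likewise on both strands, was present for 3 of the 36 (8.33%; Psmb3, Psmd4 and Psmd9), against 2.98% of all windows. Of the 4 members that fell, 0 had a match to it, and 4 genes are few for a share. On both strands again, the gamma-activated pattern TTCNNNGAA was found for 0 of the 36 (7.02% of all windows), and CCAAT for 15 (41.7%, against 33.8%). A match describes letters in the window and not a bound site.

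In the alpha ring, the gate through which substrates enter the barrel, 2 of the 4 measured genes rose and the median change was 0.26. Of all genes 30.7% rose, and 4 genes are few for a share. Psma5 read 11.98, 12.09 and 11.93 in RI-BPI arrays against 11.85, 11.70 and 11.46 in control arrays, a rise of 0.33 ± 0.12 (adjusted p = 0.0195). Psma7 read 10.60, 10.77 and 10.76 in RI-BPI arrays against 10.48, 10.26 and 10.42 in control arrays, a rise of 0.32 ± 0.11 (adjusted p = 0.015). In both, each RI-BPI array was above each control array, but the gap was narrow. Psma4 changed by 0.20 ± 0.11 (adjusted p = 0.122) and Psma2, whose arrays overlapped, by 0.04 ± 0.12 (adjusted p = 0.788). Psma5 no longer passed with control replicate 3 left out (0.22, adjusted p = 0.14), with RI-BPI replicate 2 left out (0.29, adjusted p = 0.0664), with median centring (0.24, adjusted p = 0.137) and with no filter (adjusted p = 0.0555). Psma7 no longer passed without RI-BPI replicate 3 (0.26, adjusted p = 0.0736), control replicate 1 (0.23, adjusted p = 0.143) or control replicate 2 (0.26, adjusted p = 0.0822).

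In the constitutive beta ring, which carries the catalytic sites, 2 of 7 genes rose (28.6%, against 30.7% of all genes) and the median change was 0.14. Psmb6, the subunit with caspase-like cutting, read 12.99, 12.80 and 12.69 in RI-BPI arrays against 12.17, 12.38 and 12.15 in control arrays, and rose by 0.59 ± 0.11 (1.51-fold, adjusted p = 0.000182). Every RI-BPI array stood above every control array by a clear margin. Psmb3, a structural subunit, read 11.70, 11.50 and 11.65 in RI-BPI arrays against 11.33, 11.11 and 11.28 in control arrays, and rose by 0.37 ± 0.11 (1.3-fold, adjusted p = 0.00619). Psmb5, the chymotrypsin-like subunit, spread widely at 9.02, 8.80 and 8.28 in RI-BPI arrays against 8.66, 8.76 and 8.26 in control arrays, a change of 0.14 ± 0.16 (adjusted p = 0.459). Single arrays moved that value both ways: it was -0.02 without RI-BPI replicate 1, -0.01 without control replicate 3, but 0.35 with RI-BPI replicate 3 left out, when it passed the test (adjusted p = 0.029). Psmb2, Psmb4, Psmb7 and Psmb1 changed by 0.17, 0.10, 0.09 and -0.11 without passing the test.

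Psmb10 and the subunit it replaces were set against each other within arrays. The Psmb10 probe had raw intensities of 2233, 2026 and 1947 in RI-BPI arrays against 3270, 3315 and 2793 in control arrays. On the normalized log2 scale that was 11.04, 10.98 and 11.01 in RI-BPI arrays against 11.60, 11.61 and 11.48 in control arrays. All RI-BPI arrays lay below all control arrays, and the fall was 0.55 ± 0.10 (1.47-fold lower, 95% interval -0.77 to -0.33, adjusted p = 0.000137). Psmb7, the constitutive trypsin-like subunit, read 11.19, 11.28 and 11.34 in RI-BPI arrays against 11.20, 11.20 and 11.17 in control arrays, a change of 0.09 with a 95% interval of -0.13 to 0.30 (adjusted p = 0.493). The difference Psmb10 minus Psmb7 was -0.16, -0.30 and -0.33 in RI-BPI arrays against 0.41, 0.41 and 0.31 in control arrays. Its mean was -0.26 ± 0.09 in RI-BPI arrays and 0.37 ± 0.06 in control arrays (SD, n = 3 each), a shift of -0.64. The exact two-sided permutation test over the 20 splits gave p = 0.1, the smallest value that 3 arrays against 3 allow. Probes differ in brightness, so only the shift between peptides is read from this difference, and not which subunit is more abundant.

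Among the 19S ATPases, 3 of 5 measured genes rose (30.7% of all genes did) and the median change was 0.32. Psmc2 read 12.39, 11.96 and 12.48 in RI-BPI arrays against 11.73, 11.83 and 11.95 in control arrays, and rose by 0.44 ± 0.13 (1.36-fold, adjusted p = 0.00589). Its RI-BPI array 2 was only just above the highest control array. Psmc5 rose by 0.35 ± 0.11 (9.89, 9.86 and 9.61 in RI-BPI arrays against 9.48, 9.38 and 9.46 in control arrays, adjusted p = 0.0103), but a further probe of the gene changed by -0.26 (adjusted p = 0.0791) and the mean of both by 0.04 (adjusted p = 0.719). Psmc1 rose by 0.32 ± 0.11 (10.04, 10.05 and 9.87 in RI-BPI arrays against 9.77, 9.60 and 9.62 in control arrays, adjusted p = 0.0138), but not with control replicate 2 left out (0.29, adjusted p = 0.0563). Psmc3 and Psmc4 changed by 0.10 ± 0.15 and 0.09 ± 0.10 and did not pass the test, although Psmc3 did without RI-BPI replicate 1 (0.31, adjusted p = 0.0457).

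Of the rings and cap parts, the 19S non-ATPases held the largest share of risen genes, 7 of 9 (30.7% of all genes rose), with a median change of 0.55. Psmd6, a lid subunit, read 5.93, 6.01 and 5.92 in RI-BPI arrays against 5.39, 5.24 and 5.09 in control arrays, and rose by 0.71 ± 0.11 (1.64-fold, adjusted p = 1.47e-05). Psmd6 is dim on this array, and its size depended on the background setting: the change was 0.45 with no background correction (adjusted p = 0.000187), 0.42 with an offset of 50 (adjusted p = 0.000323) and 0.45 in the authors' table (adjusted p = 0.000165). Psmd12, also of the lid, read 10.20, 10.27 and 10.16 in RI-BPI arrays against 9.53, 9.55 and 9.51 in control arrays, and rose by 0.68 ± 0.10 (1.60-fold, adjusted p = 1.33e-05). Psmd11, the lid subunit that in human embryonic stem cells is known to raise proteasome assembly, read 7.91, 7.83 and 7.99 in RI-BPI arrays against 7.11, 7.39 and 7.30 in control arrays, and rose by 0.65 ± 0.11 (1.57-fold, adjusted p = 4.91e-05). In these lid genes the arrays of a peptide sat close together and the groups were well apart.

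Psmd4, the ubiquitin receptor of the base, read 12.08, 12.18 and 12.12 in RI-BPI arrays against 11.49, 11.66 and 11.53 in control arrays, and rose by 0.56 ± 0.11 (1.48-fold, adjusted p = 0.000128). Psmd1, the scaffold of the base, read 12.17, 12.20 and 12.47 in RI-BPI arrays against 11.72, 11.58 and 11.89 in control arrays, and rose by 0.55 ± 0.12 (1.47-fold, adjusted p = 0.000478). Psmd14, the deubiquitinase of the lid, read 8.29, 8.82 and 8.41 in RI-BPI arrays against 7.91, 8 and 8.01 in control arrays, and rose by 0.53 ± 0.13 (1.44-fold, adjusted p = 0.00124). The groups did not overlap in any of these genes, and RI-BPI array 2 stood highest for Psmd14. Psmd13, a lid subunit, rose by 0.44 ± 0.11 (adjusted p = 0.00141), with 11.37, 11.57 and 11.59 in RI-BPI arrays against 11.08, 11.10 and 11.02 in control arrays.

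The remaining non-ATPases, Psmd8 and Psmd7, did not pass the test, and both did under some other settings. Psmd8, a lid subunit, read 10.70, 10.34 and 9.77 in RI-BPI arrays against 10.00, 9.92 and 9.99 in control arrays, a change of 0.30 ± 0.16 (adjusted p = 0.11). Its RI-BPI array 3 lay under the control arrays and the other RI-BPI arrays above them, and without RI-BPI replicate 3 the change was 0.55 (adjusted p = 0.000428). Psmd7, the partner of Psmd14, read 9.59, 9.97 and 10.18 in RI-BPI arrays against 9.65, 9.68 and 9.55 in control arrays, a change of 0.29 ± 0.13 (adjusted p = 0.0621), and passed without RI-BPI replicate 1 (0.44, adjusted p = 0.00413). With all arrays kept, Psmd7 passed with no background correction (adjusted p = 0.0446), in the authors' table (adjusted p = 0.0482) and with the mean of kept probes (0.40, adjusted p = 0.00271). Its probes disagreed: a further probe rose by 1.08 (adjusted p = 8.81e-08) and another changed by -0.16.

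**Figure D2:**
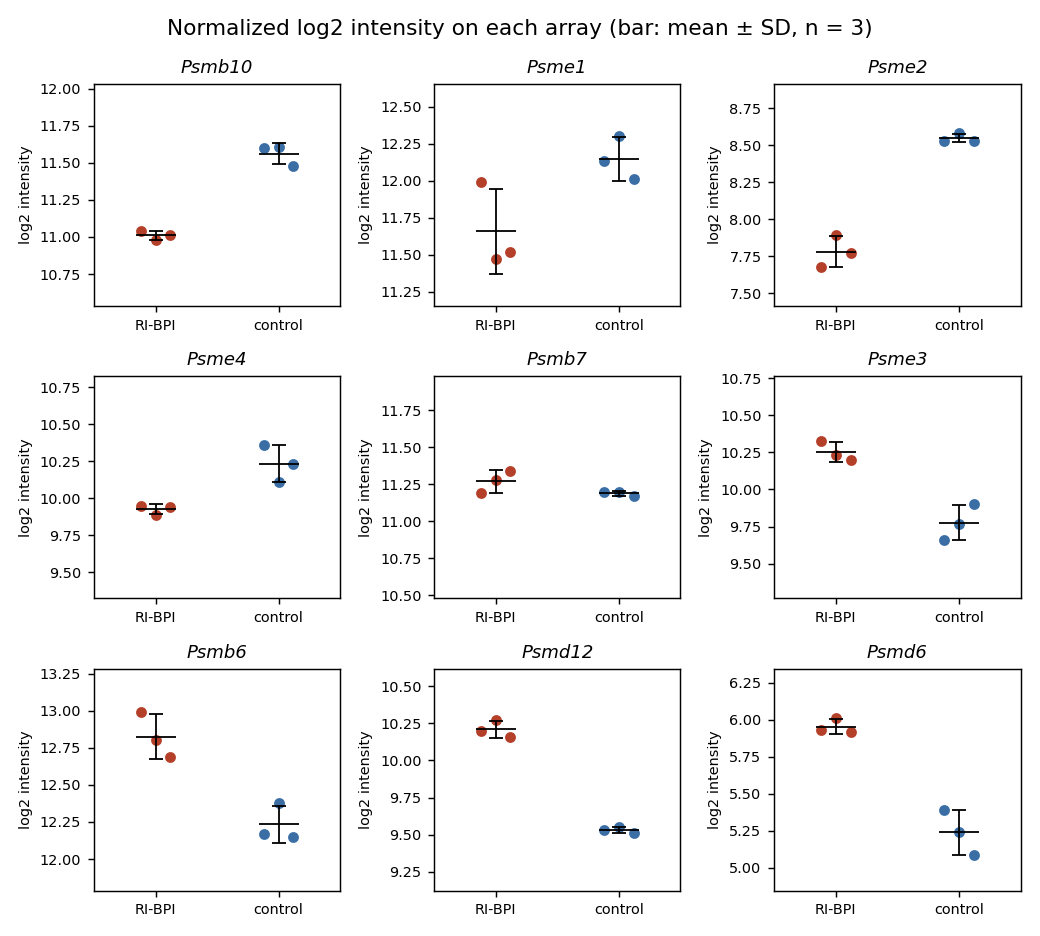
Normalized log2 intensity of 9 proteasome genes on each array (points), with the mean and SD of the 3 arrays of a peptide (bars), on axes that cover the same width of log2 in every panel. Psmd12 sits at 10.16 to 10.27 in RI-BPI arrays and at 9.51 to 9.55 in control arrays, and Psmb10 at 10.98 to 11.04 in RI-BPI arrays and 11.48 to 11.61 in control arrays.

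All 4 Psme genes were measured and all passed the test, in different directions, where 61.3% of all genes passed it. Psme2, which with Psme1 forms the PA28 cap, read 7.68, 7.89 and 7.77 in RI-BPI arrays against 8.53, 8.58 and 8.53 in control arrays, and fell by 0.76 ± 0.11 (1.70-fold lower, adjusted p = 4.51e-06). Psme1 read 11.99, 11.47 and 11.52 in RI-BPI arrays against 12.13, 12.30 and 12.01 in control arrays, and fell by 0.49 ± 0.13 (1.40-fold lower, adjusted p = 0.00335). The groups were far apart for Psme2, while for Psme1 the RI-BPI array 1 was just under the lowest control array. Psme3, which forms the nuclear PA28 gamma cap and is known not to depend on interferon-gamma, read 10.33, 10.23 and 10.20 in RI-BPI arrays against 9.66, 9.77 and 9.90 in control arrays, and rose by 0.47 ± 0.11 (1.39-fold, adjusted p = 0.000877). Psme4, the PA200 activator, read 9.95, 9.89 and 9.94 in RI-BPI arrays against 10.36, 10.11 and 10.23 in control arrays, and fell by 0.31 ± 0.11 (1.24-fold lower, adjusted p = 0.0183). Psme4 did not pass once control replicate 1 (-0.25, adjusted p = 0.0973) or RI-BPI replicate 2 (-0.29, adjusted p = 0.0523) was left out.

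**Figure D3:**
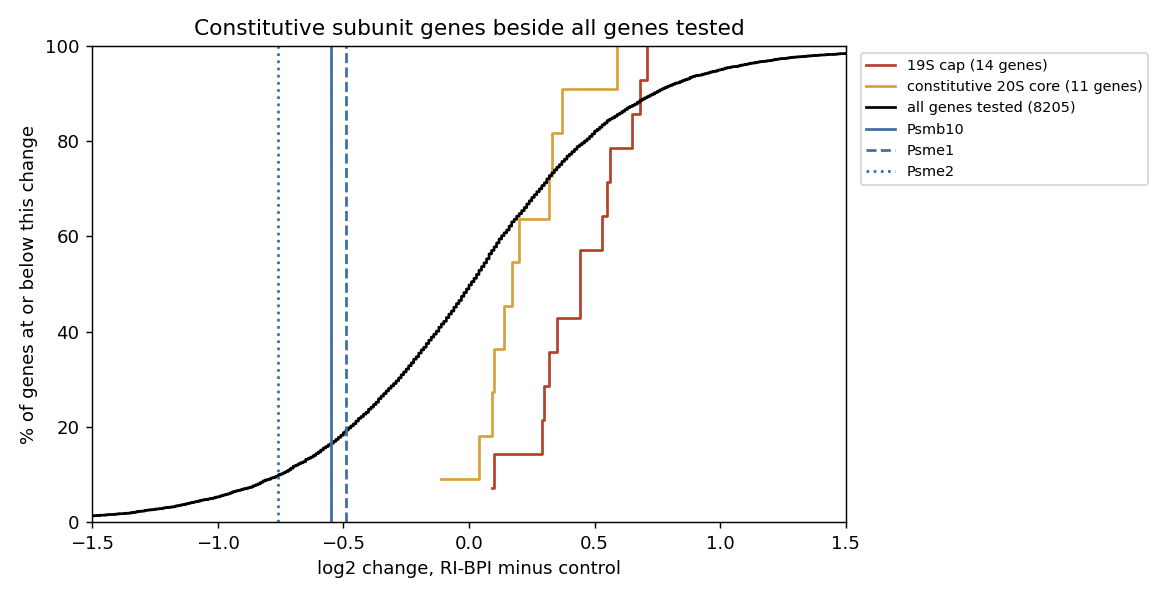
Cumulative share of genes (vertical axis) by change (log2 RI-BPI minus control, horizontal axis) for 14 genes of the 19S cap, 11 of the 20S core and all 8205 genes, with vertical lines at Psmb10, Psme1 and Psme2. Medians are 0.44 for the cap and 0.17 for the core against 0.01 for all genes, while the top of the curve of all genes reaches further right than either.

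Among 6 measured genes that share the prefix without being constitutive subunits, activators or Psmb10, only Psmd9 passed the test. Of all genes 61.3% passed it. Psmd9, a chaperone of 19S base assembly, read 5.95, 5.88 and 5.94 in RI-BPI arrays against 5.26, 5.50 and 5.61 in control arrays, and rose by 0.47 ± 0.11 (1.38-fold, adjusted p = 0.0014). A further Psmd9 probe changed by -0.11, and the mean of the probes by 0.18 (adjusted p = 0.125). With an offset of 50 the Psmd9 change was 0.28 (adjusted p = 0.00739). The assembly chaperones Psmd10 and Psmd5 changed by 0.10 ± 0.11 and 0.00 ± 0.10 without passing the test, and further Psmd10 probes fell, at -0.32 (adjusted p = 0.0197) and -0.35 (adjusted p = 0.0139), opposite in sign to the probe used. Psma8, the alpha subunit of germ cells, changed by -0.16 ± 0.11 without passing the test. Raw intensities were 58 to 68 for Psma8, 77 to 92 for Psmd5 and 68 to 90 for Psmd9. Members without a kept probe had 34.9 to 58.7, so little can be read of the level of these dim genes. Psmc3ip and Psme3ip1, which encode no subunit, changed by 0.00 and -0.02 with overlapping arrays.

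Several members could not be measured. No probe passed the filter for Psma1, Psma3, Psma6, Psmc6, Psmd2, Psmd3 and Psmb11, the last of which is a subunit of thymic cortical cells. Their 10 probes had raw intensities of 34.9 to 58.7, and 6 of the 7 genes encode subunits of the core or cap. A probe at background gives no level of its gene, and the counts above cover the measured genes alone.

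Where a gene had further detected probes, these mostly moved the same way. Over 57 kept probes of members, 21 were further probes of 16 genes, and 14 of these changed in the same direction as the probe used, while 7 changed in the opposite one. Of the 12 further probes of genes that passed the test, 9 passed it in the same direction. The further probes of Psmb10 and Psme1 fell, with changes of -0.66 ± 0.13 (adjusted p = 0.000215) and -0.90 ± 0.16 (adjusted p = 9.58e-05). Those of Psmb6, Psmd12 and Psmd11 rose by 0.50, 0.65 and 0.72. Psmb7 had 3 further probes, at 0.05, 0.11 and 0.31, the last of which passed the test (adjusted p = 0.0355) although its arrays overlapped. Each probe rested on 17 to 75 beads (median 43), and the spread between arrays of the 36 probes was 1.48 times the bead error in RI-BPI arrays and 1.16 times in control arrays, against 1.32 and 1.14 times for all detected probes.

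**Figure D4:**
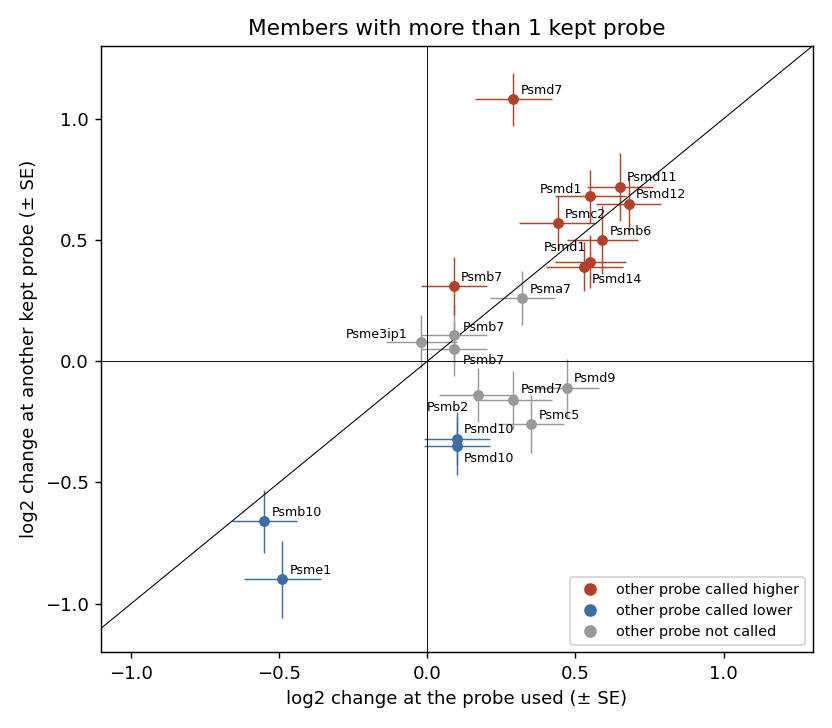
Change (log2 RI-BPI minus control) of each further probe of a proteasome gene (vertical axis) against the change of the probe used for that gene (horizontal axis), bars ± SE, red and blue points marking further probes that rose and fell and the diagonal marking equal change. Of 21 further probes, 14 have the sign of the probe used, and the Psmd7 probe at 1.08 stands apart from the others.

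The genes around the proteasome were followed in lists of assembly factors, ubiquitin handling, NRF1 control and interferon-gamma induced antigen processing. Over all lists 35 of 56 genes were measured, of which 16 rose and 5 fell, with a median change of 0.19, where 30.7% of all genes rose and 30.6% fell. With median centring 12 of them rose and 7 fell. Of 5 measured assembly factors 3 rose: Psmg3 by 0.35 ± 0.11 (adjusted p = 0.0119), Ecpas by 0.32 ± 0.11 (adjusted p = 0.0142) and Psmg2 by 0.28 ± 0.11 (adjusted p = 0.0346). None of these calls held with median centring (adjusted p of 0.0537, 0.0976 and 0.25). The core assembly factors Psmg1 and Pomp changed by -0.14 and -0.20 without passing the test.

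In the NRF1 list more measured genes rose than fell, where 30.7% of all genes rose and 30.6% fell. Nfe2l1 read 12.00, 12.19 and 11.92 in RI-BPI arrays against 11.23, 11.10 and 11.11 in control arrays, and rose by 0.89 ± 0.11 (1.85-fold, adjusted p = 1.05e-06), the arrays of the peptides lying well apart. Its relative Nfe2l2, which encodes NRF2, read 6.67, 6.65 and 6.86 in RI-BPI arrays against 7.46, 7.59 and 7.60 in control arrays, and fell by 0.82 ± 0.11 (1.77-fold lower, adjusted p = 2.39e-06). Of 8 measured genes of this list 5 rose and 1 fell: Mafg, a partner of both factors, rose by 0.66 ± 0.12, Fbxw7, part of a ubiquitin ligase that acts on NRF1, by 0.55 ± 0.12, and Vcp, the ATPase that draws NRF1 out of the endoplasmic reticulum, by 0.45 ± 0.11. Maff, another partner and 1 of the 5, was detected on 3 RI-BPI arrays and 0 control arrays, so it passed the filter through the RI-BPI arrays alone. Its passing the test follows partly from that filter. With detection required on all 6 arrays, all lists together held 34 measured genes, of which 15 rose and 5 fell. Maff was at least 1.5-fold higher in RI-BPI arrays (a lower bound taken against the lowest detected signal). That bound belongs to the main background setting. The fitted Maff change of 0.9 was 0.53 with no background correction, 0.41 with an offset of 50 and 0.56 in the authors' table. Each of these is smaller than the bound, and each passed the test.

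Ubiquitin genes that rose included Uba6, a ubiquitin-activating enzyme, which read 6.59, 6.70 and 6.69 in RI-BPI arrays against 5.65, 5.57 and 5.76 in control arrays, a rise of 1.00 ± 0.11 (adjusted p = 1.46e-07). Uba6 was the only measured gene of 6 in its list. Zfand2a, whose product AIRAP binds the proteasome under arsenite stress, read 11.93, 12.03 and 12.33 in RI-BPI arrays against 11.16, 11.20 and 10.99 in control arrays, and rose by 0.98 ± 0.12 (1.97-fold, adjusted p = 8.65e-07). It is among 3 of 8 measured receptors, shuttles and deubiquitinases that rose, with Ubqln4 (0.67 ± 0.13) and the proteasome-bound deubiquitinase Usp14 (0.37 ± 0.10), whose call was lost with median centring (0.21, adjusted p = 0.115). Among genes of the VCP complex, 5 of 7 rose, including Nploc4 (0.53), Ubxn1 (0.49) and Nsfl1c (0.46), and Derl2 fell by 0.41. Vcp itself is among the risen genes of both this list and the NRF1 list. Of all genes 30.7% rose and 30.6% fell, so 3 of 8 is near the share of all genes. Neither list was tested against these shares. The call of Derl2 was lost in 8 alternatives: an offset of 50, no filter, the mean of kept probes (-0.21, adjusted p = 0.193), and leaving out any 1 array other than RI-BPI array 1. The value was -0.63 without RI-BPI replicate 1 and -0.16 without RI-BPI replicate 3 (adjusted p = 0.27). A further Derl2 probe changed by -0.02.

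In the list of interferon-gamma induced antigen processing genes and their regulators, 0 rose, 3 fell and 4 did not pass the test, with a median change of -0.23. Of all genes 30.6% fell. A count of 3 of 7 is above that share, but 7 genes are few and the difference was not tested. Tapbp, the bridge between TAP and MHC class I, fell by 3.35 ± 0.11 (adjusted p = 3e-15), with 6.85, 6.99 and 6.88 in RI-BPI arrays against 10.32, 10.18 and 10.26 in control arrays, while a further Tapbp probe fell by 1.47. Tap2, a subunit of the peptide transporter, fell by 0.75 ± 0.15 (adjusted p = 0.00029) and Nlrc5, the class I transactivator, fell by 0.51 ± 0.11 (adjusted p = 0.000623). Tap1 changed by -0.23 ± 0.10 (adjusted p = 0.0679), B2m by -0.02, Irf1 by -0.17 and Irf8 by 0.23, none passing the test. Tap1 passed under 6 alternatives, with adjusted p of 0.0284 (offset of 50) to 0.0446 (median centring). The 3 fallen genes and Psmb10, Psme1 and Psme2 all had RI-BPI arrays below control arrays throughout, as did 32.3% of all genes tested. Psme4 did so too, as did Tap1 and Pomp, which did not pass the test. For genes already called lower this adds little to the test.

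**Figure D5:**
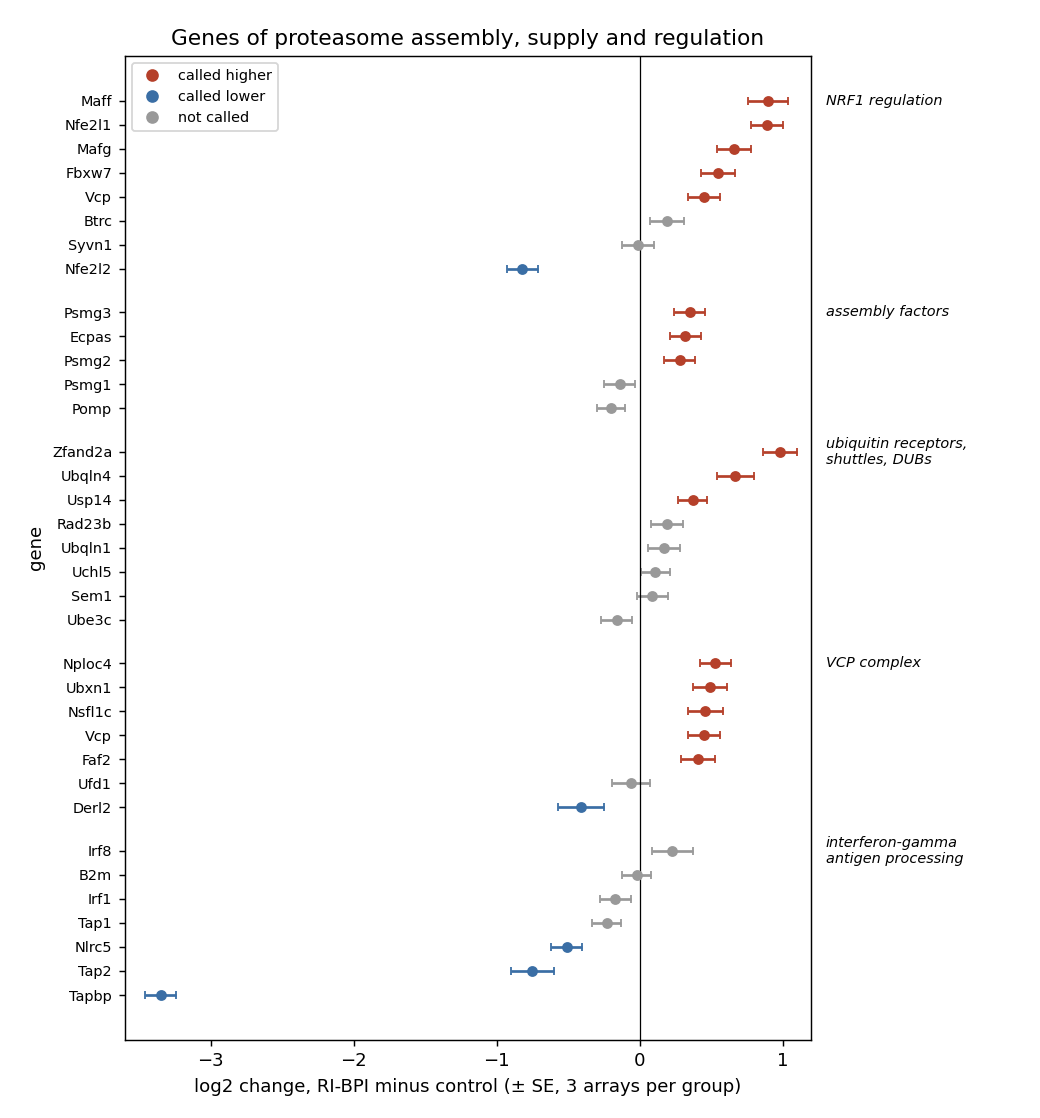
Change (log2 RI-BPI minus control, bars ± SE, n = 3 arrays per peptide) of the genes around the proteasome in 5 lists, red points marking genes that rose, blue points genes that fell and grey points the rest. The point of Maff, not detected in control arrays, is the fitted value and no bound. Nfe2l1 at 0.89 and Nfe2l2 at -0.82 lie on opposite sides of 0, and Tapbp at -3.35 is the lowest point.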

How the data were processed

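Total RNA of bone marrow-derived macrophages was read on 6 Illumina bead arrays, 3 with RI-BPI and 3 with control peptide. Per the file headers, the authors' deposited table gives for every probe the mean intensity of its beads on each array, without normalization, together with the detection p-value, the bead standard error and the bead number. The submitters' processing notes name GenomeStudio. Normalized linear intensity values, in a further deposited table whose method the sources used here do not state, served only as an alternative (column median 46.33, r of at least 0.9987 with the same array's signals). No slide or scan batch is given.

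Of 45281 probes, 34885 carried 1 gene symbol, 18 several and 10378 none, per the platform annotation. In limma (version 3.58.1, R version 4.3.3), normexp correction inferred the background from detection p-values with an offset of 16, and the values were then quantile-normalized and taken to log2. Probes detected at p under 0.01 on at least 3 of 6 arrays were kept (13975), and the brightest kept probe stood for its gene. Peptides were compared with lmFit and eBayes over 8205 genes, with Benjamini-Hochberg adjustment, 4 residual degrees of freedom before moderation and a two-sided test. The code was tested on simulated data. The members, gene lists and rule for named genes (every measured member, and listed genes with their calls) were chosen with earlier results of these data known. Promoter windows came from RefSeq (GRCm38.p6) for 36 of 43 members. Alternatives were no background correction, an offset of 50, median centring, other detection filters, the mean of kept probes, the authors' table, a replicate block, each array left out, and, added after seeing the data, each probe fitted on its own. The number of arrays limits precision.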

Additional observations from a re-analysis of the deposited data

How the results depend on the processing

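The 16 risen and 4 fallen proteasome genes became 14 to 18 and 3 to 4 over the changes of normalization, filter, probe summary or array set, and 4 and 1 with a change of at least 1.5-fold. Leaving out each array in turn gave 14 to 18 risen and 3 to 4 fallen genes, with Psmb10 at -0.60 to -0.53 and called each time. Of 25 core and cap subunits, 12 to 16 rose and 0 fell over the same changes of normalization, filter, probe summary or array set, and 4 rose at least 1.5-fold. The 19S non-ATPase median of 0.55 was 0.48 with no background correction, 0.48 with an offset of 50, 0.47 with median centring, 0.48 in the authors' table, and 0.53 to 0.60 with an array left out. The 20S alpha median of 0.26 was 0.19 with median centring and 0.04 with no filter on detection, where 7 genes enter instead of 4. The 19S ATPase median of 0.32 was 0.10 with the mean of kept probes, which also made the shift of Psmb10 minus Psmb7 -0.74. With median centring the median change of all genes was -0.08, and 1988 genes rose and 2807 fell, against 2517 and 2513. With each probe fitted on its own, 18 members had a probe that rose and 5 a probe that fell. No member that passed the test took the opposite sign under these settings for the gene's value.

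With the replicate number as a block, 2533 genes rose and 2527 fell, members stayed at 16 and 4, Psmb10 was at -0.55, and no member's call changed. Deviations of same-numbered arrays correlated at 0.02, 0.00 and 0.03, so the numbers gave no sign of pairing. The slide as a block was not run, since the headers give no slide. Probes at background bound what can be read: 7 members have no level here, and the changes of dim probes such as Psmd6 (0.42 to 0.71 over background settings) depend on the background setting.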

Other observations

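Probes of several neighbouring genes disagreed. Irf1 changed by -0.17 at the probe used and by 0.09, -0.65 and -0.61 at further probes, of which the last 2 fell. Rad23b, a ubiquitin shuttle, changed by 0.19 at the probe used, while a further probe rose by 0.60 (limma, adjusted p = 9.12e-05). Pomp, the chaperone of core assembly, had all RI-BPI arrays (11.66, 11.65 and 11.70) below all control arrays (11.82, 11.86 and 11.93). Its change of -0.20 missed the threshold (adjusted p = 0.102) and passed it with no background correction (adjusted p = 0.0453), an offset of 50 (adjusted p = 0.0356), median centring (-0.28, adjusted p = 0.0418) and no filter (adjusted p = 0.0416).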
